A study of Mus musculus with 14 samples.

Results

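The heat shock protein and DnaJ cochaperone genes were the genes whose symbol begins with Hspa, Hspb, Hspd, Hspe, Hsph, Hsp90, Dnaja, Dnajb or Dnajc, with pseudogenes left out, in a table of mouse kidney RNA. The name pattern matched 87 of 49584 genes, 12 of these were pseudogenes, and 75 genes under 74 symbols remained. Hspa14 stands for 2 gene IDs. The 4 groups were cKO cisplatin (n = 4), WT cisplatin (n = 4), cKO untreated (n = 3) and WT untreated (n = 3), where cKO is a conditional knockout of Ripk4, a kinase of the receptor-interacting family that skin needs to differentiate. Cisplatin, a platinum compound that damages DNA and is toxic to kidney tubules, was given into the abdomen at 15 mg per kg, and kidneys were taken on day 4. Untreated mice are labelled only as such, with no vehicle named. The labels give no Cre line, strain, age or sex, and do not say in which cells the deletion took place. Nothing in them says that libraries came from separate animals, so p-values measure the spread between libraries.

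Heat shock proteins bind unfolded or aggregating proteins. HSP70 proteins hold short stretches of a client and release it by an ATP cycle, J-domain (DnaJ) proteins bring the client and start ATP hydrolysis, and HSP110 proteins and other exchange factors remove the ADP. HSP90 proteins finish the folding of kinases and receptors, the chaperonin HSP60 folds proteins in a closed chamber in mitochondria, and small HSPs bind aggregating proteins without ATP. Heat shock factor HSF1 induces the cytosolic set under protein stress, while the unfolded protein response induces those of the endoplasmic reticulum.

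Ripk4 had 3.61 to 9.09 FPKM in cKO cisplatin, against 7.61 to 13.3 in WT cisplatin, and 3.68 to 4.61 in cKO untreated, against 7.18 to 8.51 in WT untreated, so the genotypes overlapped after cisplatin and did not overlap untreated. The library labelled cKO cisplatin replicate 3 had 9.09 FPKM, above WT cisplatin replicate 1 (7.61) and all 3 WT untreated libraries, and so went against its label, while the other cKO libraries had 5.62 or less. Libraries held 36.7 to 77.0 M assigned reads. Kidney markers were abundant: the summed FPKM of 18 proximal tubule genes was 11729 to 15471 in cKO cisplatin, 5888 to 9037 in WT cisplatin, 15491 to 16237 in cKO untreated and 15238 to 15592 in WT untreated. Libraries stood apart in several ways. Red blood cell genes summed to 20.6 to 32.1 FPKM in 7 of the 8 cisplatin libraries, but to 811 FPKM in the library labelled cKO cisplatin replicate 4, within the 567 to 1176 of the 6 untreated libraries. Among the 68 genes tested, that library was the lowest of its group for 37, and WT cisplatin replicate 1 was the lowest of its group for 35. Summed cell type markers differed as well. WT cisplatin replicate 1 had 53.4 FPKM of podocyte markers, against 190 to 225 in the other WT cisplatin libraries. It had 224 of endothelial (others 431 to 445), 83.1 of fibroblast (246 to 601) and 980 of collecting duct markers (410 to 692). In cKO cisplatin, replicate 1 had 79.8 of podocyte (others 165 to 191) and 248 of endothelial markers (375 to 444). Their part in member levels was not tested. On the red blood cell genes the library labelled cKO cisplatin replicate 4 went with the untreated libraries and against its label. Whether the label of cKO cisplatin replicate 3 or 4 is wrong cannot be told from these values. Groups follow the labels throughout, and the main results are also given without each of these 2 libraries.

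Levels are FPKM, in which reads are scaled to gene length and to library size, so they compare between genes. A gene was called higher or lower when limma's moderated test on log2(FPKM + 1) gave an adjusted p under 0.05 over the 15193 genes that averaged 0.5 FPKM or more, and "rose" and "fell" refer to called genes. Log2 differences are ± SE. In bulk tissue, fewer cells of a type and less RNA per cell cannot be told apart.

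In untreated WT kidney the set was dominated by a few abundant genes. The cytosolic HSP90 gene Hsp90ab1 averaged 1267 ± 82.5 FPKM (SD, n = 3) and Hspa8, the constitutive cytosolic HSP70, 1025 ± 24.3 (SD, n = 3). Next came the mitochondrial HSP70 gene Hspa9 at 642 ± 34.5 (SD, n = 3) and Hspd1, which encodes HSP60, at 556 ± 19.2 (SD, n = 3). The ranges of these 4 genes did not overlap with each other. Hspa5, which encodes the endoplasmic reticulum HSP70 known as BiP, averaged 289 ± 30.9 FPKM and the inducible HSP90 gene Hsp90aa1 261 ± 12.6 (SD, n = 3 each), and their ranges, 261 to 322 and 247 to 271, overlapped. The highest J-domain gene was Dnajc12, a cochaperone of aromatic amino acid hydroxylases, at 152 ± 17.5 FPKM (SD, n = 3), within reach of Dnaja1 at 146 ± 12.1 (SD, n = 3), a general cytosolic J-domain protein. Over the 14 libraries the 4 highest genes held 54.4% to 58.7% of the FPKM of all 75.

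The stress-inducible HSP70 genes stood far below these. Hspa1b averaged 12.4 ± 3.14 FPKM and Hspa1a 3.6 ± 0.764 in WT untreated (SD, n = 3 each). The ratio of Hspa8 to Hspa1b was 70.9 to 114 in that group. At the low end 7 genes did not reach a mean of 0.5 FPKM and were not tested: Hspa1l, Hspb3, Dnajb7, Dnajb8, Dnajb13, Dnajc5b and Dnajc5g. Dnajc5g was listed at 0 in all 14 libraries. Nearest to the limit from below was Dnajb13 with a mean of 0.420 FPKM, which had 0.726, 1.01, 1.07 and 1.46 FPKM in WT cisplatin, against 0.314, 0.133 and 0.123 in WT untreated. Exons of Dnajb13 overlap those of Ucp2 on the other strand, a gene with a mean of 166 FPKM. Since the counting strand is not stated, these values cannot be told apart from reads of Ucp2.

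After cisplatin in WT, 22 of the 68 genes tested were called higher, 8 lower and 38 in neither direction. Over all genes tested, 34.4% were called, 22.3% higher and 12.1% lower. An unadjusted p under 0.05 was found for 39 members, against 44.3% of all genes. Cisplatin and untreated libraries did not overlap for 24 members above and 15 below, against 24.6% and 14.3% of all genes. The median log2 difference was 0.15 over the 68 genes and 0.10 over all genes. That shift of 0.102 over all genes was −6.84e-05 when libraries were scaled by median-of-ratios factors and −0.0064 under quantile normalization. The split depended on it: 15 higher and 14 lower with the factors, and 15 higher and 16 lower with quantiles. Over all genes it was 2591 higher and 2409 lower with the factors, and 2650 higher and 2600 lower with quantiles. Of the 22 rises 13 were called under both of these scalings, and so were all 8 falls. The plot of responses by class shows both genotypes.

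**Figure D1:**
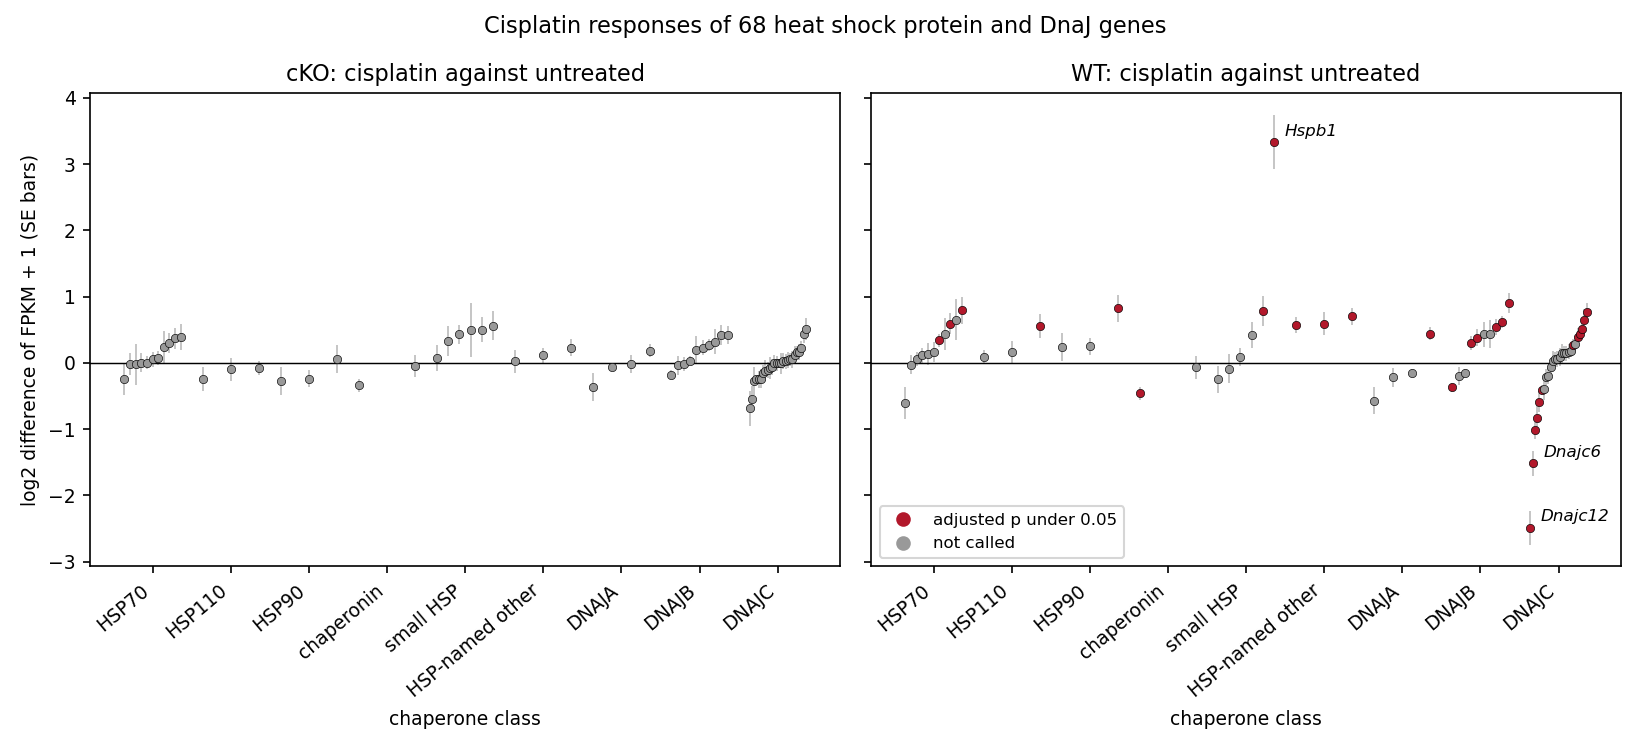
Log2 difference of FPKM + 1 between cisplatin and untreated kidneys (y axis, SE bars) for the 68 tested genes, by chaperone class (x axis), in cKO (left) and WT (right). Red points passed an adjusted p under 0.05: 30 in WT and 0 in cKO, with Hspb1 at 3.33 and Dnajc12 at −2.49 the farthest from 0 in WT.

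Among the small HSPs, 2 of the 6 tested genes rose in WT and 0 fell, against 22.3% and 12.1% of all genes. Hspb1, which encodes HSP27, a small HSP that binds unfolding proteins and actin (ENSMUSG00000004951, mm10 chromosome 5, 135887919 to 135889563), had 90.0, 121, 378 and 106 FPKM in WT cisplatin, against 15.1, 12.3 and 13.2 in WT untreated. Each cisplatin library was above each untreated one, and replicate 3 stood apart at 378. The log2 difference was 3.33 ± 0.41 (limma adjusted p = 7.66e-05), the largest in the set in either direction, and it was called under all 15 alternatives. In cKO, Hspb1 had 32.0, 22.4, 20.4 and 15.5 FPKM after cisplatin, against 10.7, 14.3 and 23.3 untreated. These ranges overlapped, and the difference of 0.49 ± 0.41 was not called (limma adjusted p = 0.715).

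Between the genotypes after cisplatin, Hspb1 averaged 22.6 ± 6.91 FPKM in cKO and 174 ± 137 in WT (SD, n = 4 each), and no cKO library reached the lowest WT library. The difference was −2.67 ± 0.38 (limma adjusted p = 4.37e-04). Subtracting the WT response from the cKO response gave −2.84 ± 0.58 (limma adjusted p = 0.0207). That last call was lost without WT untreated replicate 2 or 3, without cKO untreated replicate 2 or 3, and with no filter on low values, with adjusted p of 0.00129 to 0.0645 over the 21 alternatives. It was kept without WT cisplatin replicate 3, the library that stood apart, and without the library labelled cKO cisplatin replicate 3 (−2.81, adjusted p = 0.0450) or 4 (−2.68, adjusted p = 0.0409).

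Hspb8, the small HSP that works with the cochaperone BAG3, had 10.3, 8.64, 13.6 and 6.70 FPKM in WT cisplatin, against 5.82, 5.21 and 4.41 in WT untreated. The groups did not overlap, and Hspb8 rose by 0.78 ± 0.23 (limma adjusted p = 0.0176), a call lost without WT untreated replicate 3 or WT cisplatin replicate 3 (adjusted p of 0.00825 to 0.0747 over its 15 alternatives). In cKO it had 4.26 to 7.18 FPKM after cisplatin, against 3.40 to 6.35 untreated, with overlap. After cisplatin Hspb8 was lower in cKO than in WT (−0.63 ± 0.21, limma adjusted p = 0.0437), a call kept under 4 of 16 alternatives and lost, among others, under both scalings and without any 1 of WT cisplatin replicates 1 to 3, cKO cisplatin replicates 1 and 2 or the library labelled cKO cisplatin replicate 4. Hspb1 over Hspb8 was 2.84 to 4.87 in cKO cisplatin, 8.75 to 27.7 in WT cisplatin, 2.68 to 4.19 in cKO untreated and 2.37 to 2.99 in WT untreated, so the ratio in WT cisplatin lay above every other library. The muscle small HSP genes Hspb2, Hspb6 and Hspb7 and the testis gene Hspb9 were not called in WT. Hspb2 overlaps exons of Cryab on the other strand, and its low values of 0.909 to 2.38 FPKM over all libraries cannot be told apart from reads of that gene, since the counting strand is not stated.

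The promoter of Hspb1 holds a pair of matches to the shortest heat shock element and is printed here because this gene changed most. The core searched was GAANNTTC or TTCNNGAA, each its own reverse complement, in the 250 bases before the start annotated by RefSeq, in GRCm38.p6. This core was in the windows of 14.5% of 27025 genes and of 23.3% of the 60 member symbols that the table of promoters holds. Hspa1a and Hspa1b, whose windows differ at 3 of 250 bases, hold 1 match each. Below, read 5′ to 3′, capitals mark the GAA and TTC units of each match, at chr5:135887669-135887918 (plus strand), chr17:34972157-34972406 (minus strand) and chr17:34959239-34959488 (minus strand).
Hspb1: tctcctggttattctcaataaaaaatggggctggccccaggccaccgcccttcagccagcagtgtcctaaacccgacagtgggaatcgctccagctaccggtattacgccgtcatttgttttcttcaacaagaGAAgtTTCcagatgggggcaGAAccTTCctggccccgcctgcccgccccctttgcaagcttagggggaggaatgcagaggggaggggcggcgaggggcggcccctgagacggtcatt
Hspa1a: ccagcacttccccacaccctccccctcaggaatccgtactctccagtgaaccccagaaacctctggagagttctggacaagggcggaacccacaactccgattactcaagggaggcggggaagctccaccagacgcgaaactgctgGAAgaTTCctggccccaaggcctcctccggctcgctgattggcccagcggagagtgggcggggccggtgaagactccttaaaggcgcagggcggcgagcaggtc
Hspa1b: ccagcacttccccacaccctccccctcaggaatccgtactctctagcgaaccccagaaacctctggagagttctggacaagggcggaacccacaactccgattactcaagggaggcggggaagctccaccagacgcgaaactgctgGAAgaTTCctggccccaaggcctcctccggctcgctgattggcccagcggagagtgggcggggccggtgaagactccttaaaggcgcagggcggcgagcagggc

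The 3 genes did not share a call. Hspa1b had 15.4, 18.8, 30 and 16.9 FPKM in WT cisplatin, against 8.77, 13.8 and 14.5 in WT untreated, and its difference of 0.65 ± 0.31 did not pass (limma adjusted p = 0.117) although the groups did not overlap. Hspa1a had 4.61, 4.65, 7.85 and 4.01 FPKM in WT cisplatin, against 2.72, 4.10 and 3.98 in WT untreated, with overlap and a difference of 0.43 ± 0.24 (limma adjusted p = 0.189). Both genes were highest among WT cisplatin libraries in replicate 3, as Hspb1 was. In cKO untreated, replicate 3 had 6.24 FPKM of Hspa1a and 28.1 of Hspa1b, against 2.80 to 2.85 and 9.86 to 11.2 in its other libraries. Hspa1a and Hspa1b are near-identical copies, so how reads were divided between them is uncertain; Hspa1b over Hspa1a was 3.0 to 4.51 over all libraries.

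Dnajb1 and Hsph1, which are also heat-inducible, were not called in WT either. Dnajb1, the main J-domain partner of inducible HSP70, had 14.3, 16.9, 25.5 and 17.4 FPKM in WT cisplatin, against 10.6, 12.9 and 16.7 in WT untreated (0.43 ± 0.19, limma adjusted p = 0.0909). Hsph1, which encodes the exchange factor HSP105, had 51.4, 55.1, 76.6 and 62.8 FPKM in WT cisplatin, against 45.8, 55.5 and 63.1 in WT untreated (0.16 ± 0.17, limma adjusted p = 0.502). Both pairs of groups overlapped. Dnajb1 was called higher under 4 of 15 alternatives, with array weights, without WT untreated replicate 3, without WT cisplatin replicate 1, and without both WT cisplatin replicate 1 and the library labelled cKO cisplatin replicate 4 (0.27 to 0.59, adjusted p of 0.0318 to 0.326 over the 15). The plot of the archetype genes shows that WT cisplatin replicate 3 was the highest of its group for Hspa1a, Hspa1b, Dnajb1 and Hsph1.

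**Figure D2:**
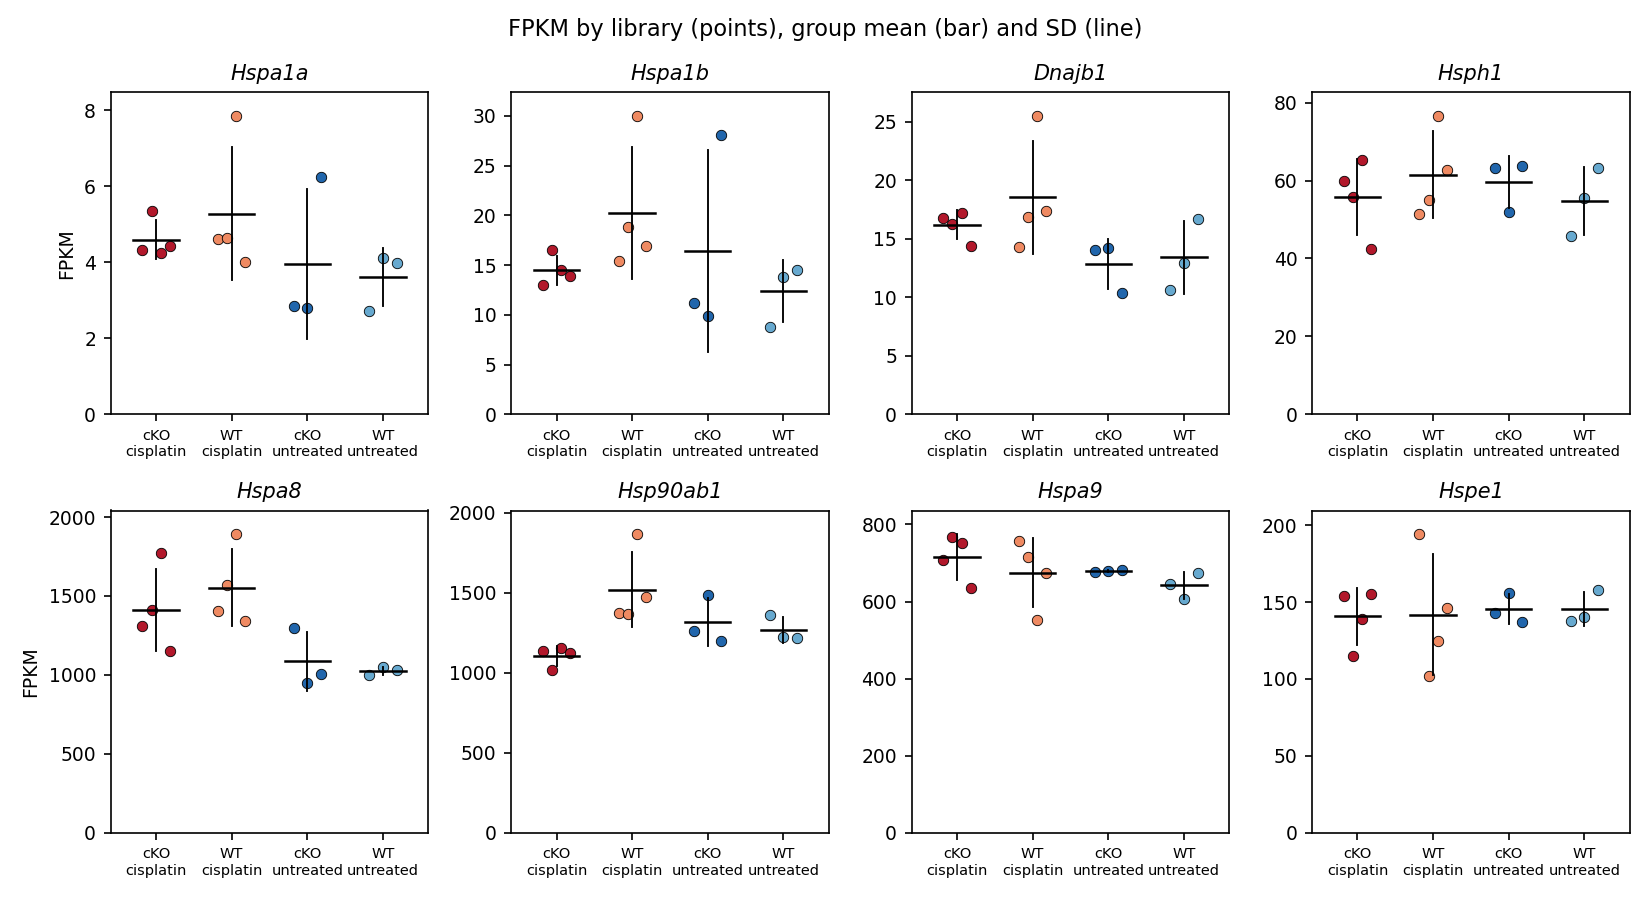
FPKM of 8 heat shock genes (1 panel each, y axis from 0) in every library (points) with group mean (bar) and SD (line), in the order cKO cisplatin, WT cisplatin, cKO untreated, WT untreated. Of the 8 genes, Hspa8 was called higher in WT after cisplatin, while Hspa1a, Hspa1b, Dnajb1, Hsph1, Hsp90ab1, Hspa9 and Hspe1 were not called there.

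In the HSP70 class 3 of the 11 tested genes rose in WT and 0 fell, against 22.3% and 12.1% of all genes. Hspa8 (ENSMUSG00000015656) had 1408, 1571, 1890 and 1341 FPKM in WT cisplatin, against 999, 1048 and 1029 in WT untreated, and the groups did not overlap. It rose by 0.59 ± 0.16 (limma adjusted p = 0.0145), a call lost with median-of-ratios factors and without WT untreated replicate 1 (adjusted p of 0.00852 to 0.0560 over its 15 alternatives). In cKO it had 1309, 1411, 1772 and 1155 FPKM after cisplatin, against 1297, 950 and 1009 untreated. There 1 untreated library lay within the cisplatin range, and the difference of 0.37 ± 0.16 was not called (limma adjusted p = 0.399). After cisplatin cKO and WT were not distinguished for Hspa8 (−0.14 ± 0.15, limma adjusted p = 0.529).

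Hspa5 (ENSMUSG00000026864) had 369, 517, 610 and 530 FPKM in WT cisplatin, against 284, 261 and 322 in WT untreated, with no overlap. It rose by 0.79 ± 0.20 (limma adjusted p = 0.00823), under all 15 alternatives. In cKO, Hspa5 had 351, 402, 424 and 250 FPKM after cisplatin, against 243, 332 and 236 untreated, where the library labelled cKO cisplatin replicate 4 lay among the untreated libraries (0.39 ± 0.20, limma adjusted p = 0.49). After cisplatin it averaged 356 ± 77.2 FPKM in cKO and 507 ± 100 in WT (SD, n = 4 each), a difference of −0.51 ± 0.19 that did not pass (limma adjusted p = 0.0571) and passed under 4 of 16 alternatives, among them the omission of the library labelled cKO cisplatin replicate 3 (−0.60, adjusted p = 0.0474). Over the 16 its adjusted p was 0.0108 to 0.171. The remaining rise was the more abundant Hspa14 ID (ENSMUSG00000109865, ribosome-associated HSP70), at 0.34 ± 0.10 (limma adjusted p = 0.0184), which lost its call under both scalings and without WT untreated replicate 2 or 3 or WT cisplatin replicate 4. Its lower level in cKO than in WT after cisplatin (−0.26 ± 0.09, limma adjusted p = 0.0498) was kept under 6 of 16 alternatives, and lost without any 1 of the 4 cKO cisplatin libraries. The other Hspa14 ID, ENSMUSG00000051396, named Gm45902 in GENCODE M21, shares exons with it and had 0.390 to 0.779 FPKM.

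Of the 10 genes of the endoplasmic reticulum, 4 rose in WT and 0 fell, against 22.3% and 12.1% of all genes. The 4 were Hspa5, Dnajb9, Dnajb11 and Dnajc10. Dnajb9, a J-domain protein of BiP, had 34.5, 46.2, 44.4 and 42.6 FPKM in WT cisplatin, against 30.1, 25.7 and 29.6 in WT untreated. It rose without overlap, by 0.54 ± 0.12 (limma adjusted p = 0.00478). Dnajb11 and Dnajc10, a soluble BiP cofactor and a disulfide reductase, rose by 0.30 ± 0.10 and 0.39 ± 0.13 (limma adjusted p = 0.0383 and 0.0332) and lost their calls under both scalings and without most of the single WT libraries. Hsp90b1, the HSP90 of the endoplasmic reticulum, had 172, 178, 222 and 113 FPKM in WT cisplatin, against 147, 128 and 148 in WT untreated (0.24 ± 0.21, limma adjusted p = 0.399). WT cisplatin replicate 4, low for Hsp90b1, was not low for Hspa5: Hspa5 over Hsp90b1 was 4.68 there, against 2.15 to 2.91 in the other WT cisplatin libraries and 1.93 to 2.18 in WT untreated. Dnajc3, which binds clients for BiP, had 42.3, 48.2, 44.2 and 49.0 FPKM in WT cisplatin, against 46.7, 46.8 and 50.8 in WT untreated (−0.07 ± 0.11, limma adjusted p = 0.676).

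These last 3 genes are the members with an endoplasmic reticulum stress element before their start, printed here because they carry the same element and did not share a call. The element searched was CCAAT, then any 9 bases, then CCACG, on either strand. It was found in 0.130% of all 27025 genes and in 3 of the 60 member symbols. The windows, in GRCm38.p6 from RefSeq, 5′ to 3′ with the element's fixed bases in capitals, are chr2:34772020-34772049 (plus strand, 30 bases, since GENCODE M21 places exons around them), chr10:86705510-86705694 (minus strand) and chr14:118937682-118937931 (plus strand). Hsp90b1 holds the element on both strands.
Hspa5: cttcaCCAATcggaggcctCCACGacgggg
Hsp90b1: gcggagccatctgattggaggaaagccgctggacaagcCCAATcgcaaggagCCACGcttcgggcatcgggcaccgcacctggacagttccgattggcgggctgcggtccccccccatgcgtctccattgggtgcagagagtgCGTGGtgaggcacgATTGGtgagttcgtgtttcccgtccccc
Dnajc3: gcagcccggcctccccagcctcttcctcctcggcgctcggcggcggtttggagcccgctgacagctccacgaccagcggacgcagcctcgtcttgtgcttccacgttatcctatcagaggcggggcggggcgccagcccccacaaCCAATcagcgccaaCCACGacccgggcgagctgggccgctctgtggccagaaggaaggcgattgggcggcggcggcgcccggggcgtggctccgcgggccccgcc

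Of the HSP90 genes of the cytosol, 1 rose in WT. Hsp90aa1 (ENSMUSG00000021270, mm10 chromosome 12, 110690605 to 110702728) had 341, 429, 595 and 518 FPKM in WT cisplatin, against 271, 247 and 266 in WT untreated, with no overlap. It rose by 0.82 ± 0.21 (limma adjusted p = 0.00933), under all 15 alternatives. Hsp90ab1 had 1371, 1369, 1866 and 1476 FPKM in WT cisplatin, against 1363, 1224 and 1215 in WT untreated, with a gap of less than 10 FPKM between the groups and no call (0.25 ± 0.13, limma adjusted p = 0.150). Hsp90aa1 over Hsp90ab1 was 0.160 to 0.242 in cKO cisplatin, 0.249 to 0.351 in WT cisplatin, 0.186 to 0.264 in cKO untreated and 0.199 to 0.219 in WT untreated, so the WT cisplatin ratios were above those of WT untreated and of cKO cisplatin.

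In cKO neither cytosolic HSP90 gene was higher after cisplatin. Hsp90aa1 had 262, 237, 279 and 180 FPKM in cKO cisplatin, against 266, 392 and 223 in cKO untreated (−0.27 ± 0.21, limma adjusted p = 0.689). Hsp90ab1 had 1134, 1016, 1155 and 1126 FPKM in cKO cisplatin, against 1264, 1484 and 1197 in cKO untreated, each cisplatin library below each untreated one but without a call (−0.24 ± 0.13, limma adjusted p = 0.508). After cisplatin both were lower in cKO than in WT. Hsp90aa1 averaged 240 ± 43.2 FPKM in cKO and 471 ± 110 in WT (SD, n = 4 each), a difference of −0.96 ± 0.20 (limma adjusted p = 0.00378) called under all 16 alternatives. Hsp90ab1 averaged 1108 ± 62.4 FPKM in cKO and 1520 ± 235 in WT (SD, n = 4 each), a difference of −0.45 ± 0.12 (limma adjusted p = 0.0154) that lost its call with median-of-ratios factors and with only the groups compared. The difference of the cisplatin responses for Hsp90aa1 was −1.09 ± 0.30 and did not pass (limma adjusted p = 0.0594). It passed with array weights (adjusted p = 0.00458), without WT cisplatin replicate 1 (adjusted p = 0.0139), and without both that library and the one labelled cKO cisplatin replicate 4 (adjusted p = 0.0197).

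**Figure D3:**
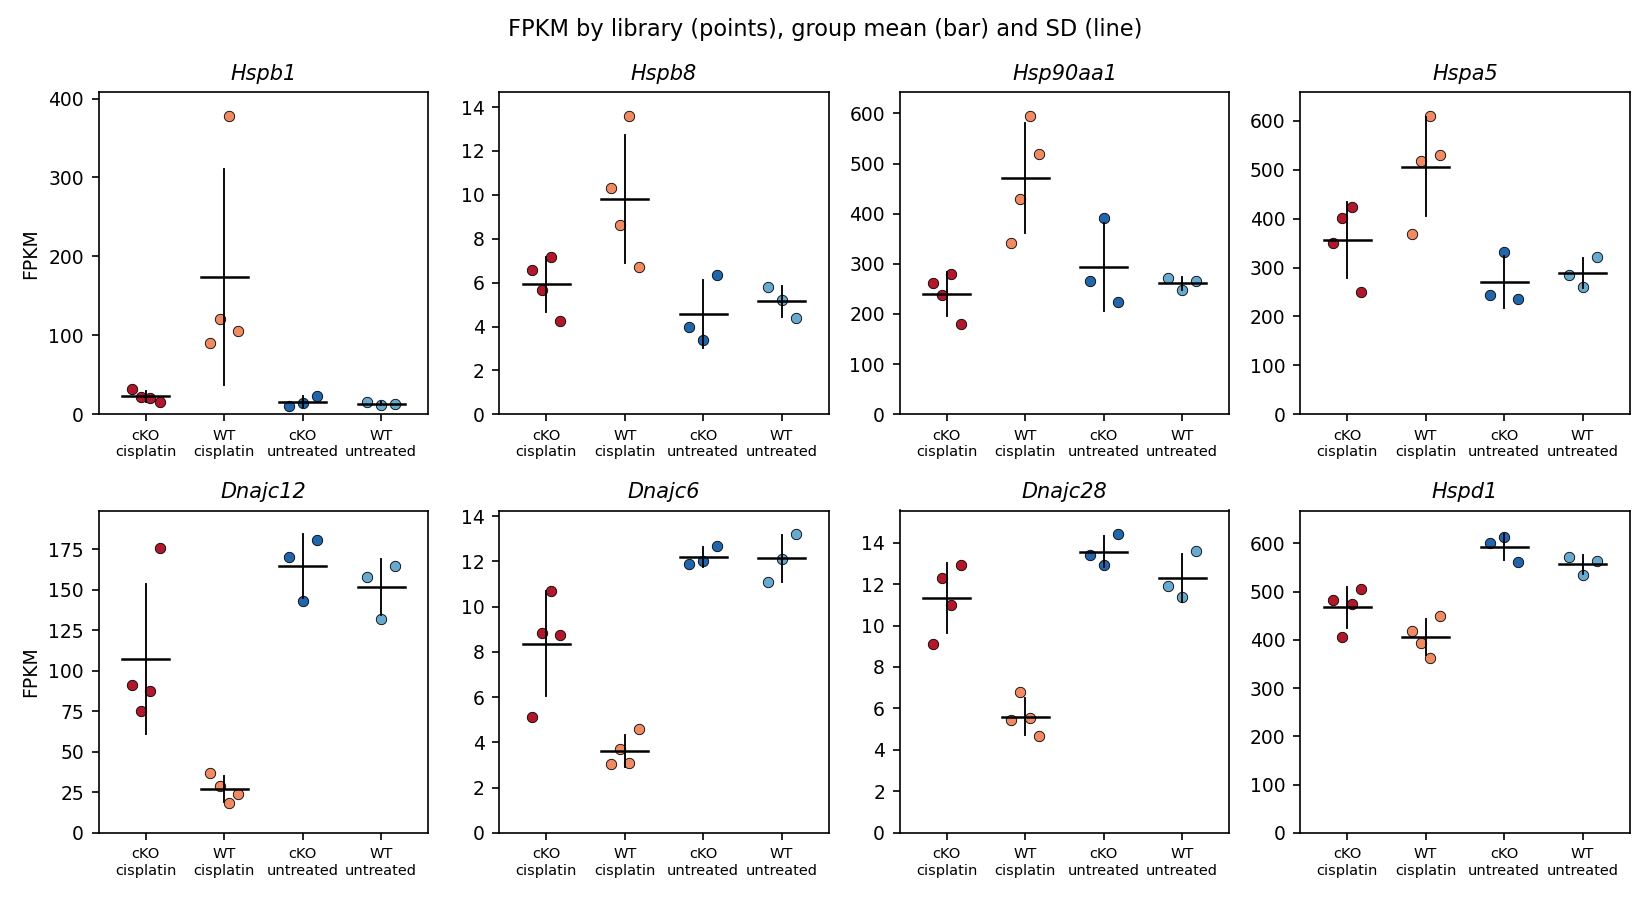
FPKM of 8 chaperone genes that were called in WT after cisplatin (1 panel each, y axis from 0) in every library (points) with group mean (bar) and SD (line), in the order cKO cisplatin, WT cisplatin, cKO untreated, WT untreated. For Hspb1 the 4 WT cisplatin libraries sit between 90.0 and 378 FPKM, and for Dnajc12 between 18.3 and 36.8, in both cases clear of the other 3 groups.

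Of the 9 mitochondrial chaperone genes, 3 fell and 1 rose in WT, against 12.1% and 22.3% of all genes. Hspd1 (ENSMUSG00000025980, mm10 chromosome 1, 55077835 to 55088243) had 418, 393, 362 and 449 FPKM in WT cisplatin, against 571, 534 and 563 in WT untreated, with no overlap. It fell by 0.46 ± 0.10 on the log2 scale (limma adjusted p = 0.00337), under all 15 alternatives. In cKO, Hspd1 had 482, 406, 475 and 505 FPKM after cisplatin, against 600, 613 and 561 untreated, again with no overlap. That difference of −0.34 ± 0.10 had an unadjusted p of 0.00445 and an adjusted p of 0.178, and it was called with array weights (−0.36, adjusted p = 0.0230). Its partner Hspe1, the lid of the HSP60 chamber, had 194, 102, 125 and 146 FPKM in WT cisplatin, against 138, 140 and 158 in WT untreated, and was not called (−0.07 ± 0.17, limma adjusted p = 0.791). WT cisplatin replicate 1 was the highest for Hspe1 and replicate 2 the lowest.

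Hspd1 and Hspe1 lie head to head, with exons that overlap, and share the stretch before their starts. That stretch holds a full heat shock element, searched as 3 alternating GAA and TTC units with 2 bases between units on either strand. It contains the shorter core above and was present in the windows of 0.514% of all genes and of 3 member symbols, the third being Dnajb6. The stretches shown are 30 bases each because exons are annotated around them: chr1:55088050-55088079 (minus strand), chr1:55088056-55088085 (plus strand) and chr5:29735844-29735873 (plus strand), GRCm38.p6, with the units in capitals.
Hspd1: gccTTCcgGAAggTTCtaGAAcggaccgtg
Hspe1: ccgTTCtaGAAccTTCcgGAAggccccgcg
Dnajb6: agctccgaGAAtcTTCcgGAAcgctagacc

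None of these 3 genes rose with cisplatin. Dnajb6, a J-domain protein that binds aggregating polyglutamine, had 80.1, 83.1, 91.2 and 79.3 FPKM in WT cisplatin, against 110, 104 and 110 in WT untreated, and fell by 0.37 ± 0.07 on the log2 scale (limma adjusted p = 0.00176). The cKO libraries had 98.8, 91.6, 101 and 97.5 FPKM after cisplatin, against 112, 106 and 113 untreated. The groups overlapped in neither genotype, but the cKO difference of −0.18 ± 0.07 was not called (limma adjusted p = 0.368).

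The other mitochondrial falls in WT were Dnajc19 and Dnajc28. Dnajc19, a J-domain subunit of the protein import motor, had 55.3, 39.3, 32.4 and 37.5 FPKM in WT cisplatin, against 57.3, 59.7 and 67.1 in WT untreated (−0.59 ± 0.16, limma adjusted p = 0.0102). That call was lost without WT untreated replicate 3 (adjusted p of 1.03e-04 to 0.0501 over its alternatives), and exons of Dnajc19 overlap those of Fxr1 on the other strand. Its paralog Dnajc15 was not called, and Dnajc15 over Dnajc19 was 0.9 to 1.17 in cKO cisplatin, 1.35 to 1.79 in WT cisplatin, 0.786 to 0.947 in cKO untreated and 0.850 to 0.907 in WT untreated. The HSP70 of the matrix, Hspa9, had 758, 715, 551 and 674 FPKM in WT cisplatin, against 646, 606 and 675 in WT untreated, with overlap (0.06 ± 0.11, limma adjusted p = 0.709; −0.06 and −0.03 under the 2 scalings). Hspa9 over Hspd1 was 1.26 to 1.89 in cKO cisplatin, 1.5 to 1.82 in WT cisplatin, 1.11 to 1.22 in cKO untreated and 1.13 to 1.2 in WT untreated, above all untreated libraries in all 8 cisplatin libraries. Dnajc11, which associates with the cristae-organizing complex, was the 1 mitochondrial rise (0.43 ± 0.10, limma adjusted p = 0.00616), a call lost with quantile normalization.

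The largest falls in the set were J-domain genes of class C. Dnajc12 (ENSMUSG00000036764, mm10 chromosome 10, 63382443 to 63408840) had 36.8, 28.8, 18.3 and 23.7 FPKM in WT cisplatin, against 158, 132 and 165 in WT untreated, a fall of 2.49 ± 0.26 on the log2 scale (limma adjusted p = 3.32e-05) with no overlap. In cKO it had 91.0, 75.1, 87.4 and 176 FPKM after cisplatin, against 170, 143 and 181 untreated. Here 3 cisplatin libraries lay below all untreated ones and the library labelled cKO cisplatin replicate 4 lay among them. The cKO difference was −0.69 ± 0.26 (limma adjusted p = 0.313), and −0.95 without that library, when it was called (adjusted p = 0.0328). After cisplatin Dnajc12 averaged 107 ± 46.2 FPKM in cKO and 26.9 ± 7.87 in WT (SD, n = 4 each), higher in cKO by 1.92 ± 0.24 (limma adjusted p = 2.72e-04) and under all 16 alternatives.

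For Dnajc12 the cKO response minus the WT response was 1.80 ± 0.37 (limma adjusted p = 0.0215). It was 1.54 at its lowest over 21 alternatives, and its adjusted p ran from 6.98e-04 to 0.0675. The call was lost without any 1 of the 3 WT untreated libraries, without cKO untreated replicate 2 or 3, and with no filter on low values. It was kept without the library labelled cKO cisplatin replicate 3 (1.87, adjusted p = 0.0406) or 4 (1.54, adjusted p = 0.0215).

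Dnajc28, a mitochondrial J-domain protein, had 5.43, 6.79, 5.54 and 4.66 FPKM in WT cisplatin, against 11.9, 11.4 and 13.6 in WT untreated. It fell by 1.02 ± 0.13 on the log2 scale (limma adjusted p = 1.13e-04) without overlap. Levels in cKO were 9.13, 12.3, 11 and 12.9 FPKM after cisplatin, against 13.4, 12.9 and 14.4 untreated (−0.25 ± 0.13, limma adjusted p = 0.510). After cisplatin cKO had more Dnajc28 than WT, by 0.90 ± 0.12 (limma adjusted p = 3.72e-04), and its responses differed by 0.77 ± 0.19 (limma adjusted p = 0.0406). This last call was lost under 12 of 21 alternatives: with no filter, and without any 1 untreated library, WT cisplatin replicate 3 or 4, or any 1 of the libraries labelled cKO cisplatin replicate 2, 3 and 4 (adjusted p of 0.00291 to 0.116).

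Dnajc6, which encodes auxilin, the cofactor that lets HSP70 strip clathrin from vesicles, had 3.06, 3.69, 3.10 and 4.58 FPKM in WT cisplatin, against 11.1, 12.1 and 13.2 in WT untreated. It fell by 1.52 ± 0.19 on the log2 scale (limma adjusted p = 7.47e-05). In cKO it had 5.14, 8.82, 10.7 and 8.77 FPKM after cisplatin, against 11.9, 12.0 and 12.7 untreated, below all untreated libraries but without a call (−0.54 ± 0.19, limma adjusted p = 0.262). After cisplatin its level in cKO exceeded that in WT by 1.00 ± 0.17 (limma adjusted p = 0.00144), while the difference of responses, 0.98 ± 0.26, did not pass (limma adjusted p = 0.0543). It passed under 6 alternatives: both scalings (1.06, adjusted p = 0.0394, and 1.09, adjusted p = 0.0319), a filter at 1 FPKM, array weights, and without WT cisplatin replicate 1 or cKO cisplatin replicate 1.

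Dnajc13, an endosomal J-domain protein, had 53.0, 97.9, 70.3 and 72.7 FPKM in WT cisplatin, against 129, 124 and 134 in WT untreated (−0.84 ± 0.21, limma adjusted p = 0.00692). Dnajc22 had 75.3, 72.3, 67.9 and 71.8 FPKM in WT cisplatin, against 92.8, 99.1 and 94.7 in WT untreated (−0.41 ± 0.07, limma adjusted p = 0.00103). Neither gene's groups overlapped. Beside these falls, 12 of 18 proximal tubule markers fell in WT and 0 rose, 8 of 14 thick ascending limb and distal tubule markers fell and 1 rose, and 6 of 7 tested red blood cell genes fell. The thick ascending limb and distal tubule markers summed to 2181.6 to 3269.7 FPKM in WT cisplatin, against 3795.5 to 3978.1 in WT untreated, and the proximal tubule sums are given above. The part of these markers in the falls was not tested.

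The J-domain class as a whole went in both directions: of 40 tested, 12 rose and 7 fell in WT, against 22.3% and 12.1% of all genes. By class the counts were 1 rise and 0 falls of 4 in DNAJA, 5 rises and 1 fall of 10 in DNAJB, and 6 rises and 6 falls of 26 in DNAJC. The summed FPKM of the 45 J-domain genes stayed between 0.190% and 0.240% of the FPKM of all genes in every library. The largest J-domain rise was Dnajb4, a cytosolic partner of HSP70, with 25.7, 27.9, 32.8 and 31.8 FPKM in WT cisplatin, against 13.1, 15.4 and 17.8 in WT untreated (0.90 ± 0.15, limma adjusted p = 5.16e-04). Dnajb2, which links HSP70 clients to ubiquitin-dependent disposal, had 52.2, 46.2, 48.6 and 45.6 FPKM in WT cisplatin, against 31.0, 29.3 and 33.0 in WT untreated (0.61 ± 0.09, limma adjusted p = 3.27e-04). The groups did not overlap for either gene.

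Other J-domain genes that rose in WT were Dnaja2 (0.44), Dnajc5 (0.51), Dnajb3 (0.38) and Dnajc7 (0.27). Dnajc7 kept its call under 6 of 15 alternatives. It lost the call under both scalings, without any 1 WT untreated library and without WT cisplatin replicate 1 or 4, among others. Dnajb3 averaged 0.512 FPKM over all libraries and reached the filter only through its cisplatin libraries. It had 0.533 to 0.955 FPKM in WT cisplatin and 0.210 to 0.572 in WT untreated, with overlap. Its call was kept under 8 of 14 alternatives. Losses came with median-of-ratios factors, only the groups compared, and without WT untreated replicate 2 or 3 or WT cisplatin replicate 2 or 3. Dnaja1, a general cytosolic partner of HSP70, had 111, 124, 157 and 115 FPKM in WT cisplatin, against 136, 143 and 160 in WT untreated, with overlap and no call (−0.22 ± 0.14, limma adjusted p = 0.265). The 19 members not named elsewhere were not called in WT: the J-domain genes Dnaja4, Dnajb5, Dnajb12, Dnajb14, Dnajc2, Dnajc4, Dnajc8, Dnajc14, Dnajc16, Dnajc18, Dnajc21, Dnajc24, Dnajc25, Dnajc27 and Dnajc30, the HSP70 genes Hspa2, Hspa12b and Hspa13, and the HSP110 gene Hspa4. Their differences ran from −0.57 for Dnaja4 (limma adjusted p = 0.0515) to 0.43 for Dnajb5 (limma adjusted p = 0.128). Dnaja4 was called lower under both scalings, among other alternatives. The HSP70 gene Hspa12a was not called in WT either. It had 1.78, 4.17, 5.2 and 3.81 FPKM in WT cisplatin, against 6.1, 5.9 and 5.89 in WT untreated, with no overlap. Hspa12a was called lower under both scalings (−0.72 and −0.73, limma adjusted p = 0.0153 and 0.00429), with array weights and without WT cisplatin replicate 3.

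In cKO, Dnajb4 and Dnajb2 gave 21.5, 24.4, 20.5 and 15.4 FPKM (Dnajb4) after cisplatin, against 14.2, 16.4 and 14 untreated, and 39.1, 39.8, 39.5 and 31.3 FPKM (Dnajb2) after cisplatin, against 31.3, 30.9 and 29.9 untreated. Replicates 1 to 3 were above all untreated libraries and replicate 4 was not. Dnajb2 was called in cKO without replicate 4 (0.35, limma adjusted p = 0.0496) and not with it (0.27 ± 0.09, limma adjusted p = 0.267). After cisplatin both genes were lower in cKO than in WT, with differences of −0.52 ± 0.14 for Dnajb4 and −0.36 ± 0.09 for Dnajb2 (limma adjusted p = 0.0138 and 0.00962). Dnajb2 lost that call with median-of-ratios factors and with only the groups compared.

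Dnajc9, a J-domain histone chaperone, had 16.7, 14.2, 19.0 and 19.5 FPKM in WT cisplatin, against 9.95, 8.78 and 10.4 in WT untreated (0.77 ± 0.13, limma adjusted p = 7.32e-04). In cKO it had 13.5, 13.8, 10.7 and 10.2 FPKM after cisplatin, against 8.10, 8.65 and 9.22 untreated, above all of them but without a call (0.43 ± 0.13, limma adjusted p = 0.211). Dnajc17 had 11.5, 8.46, 10.9 and 9.12 FPKM in WT cisplatin, against 6.0, 6.92 and 5.06 in WT untreated (0.65 ± 0.16, limma adjusted p = 0.00637). Its cKO difference was close in size, 0.51 ± 0.16 (limma adjusted p = 0.208), with 7.53 to 11.6 FPKM after cisplatin and 5.42 to 6.68 untreated. Exons of Dnajc17 overlap those of Zfyve19 on the other strand.

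Among the exchange factors and the genes that carry an HSP name without being chaperones of these classes, Hspa4l, Hspbp1, Hspb11 and Hspbap1 rose in WT. Hspbp1, an exchange factor of HSP70, had 78.5, 55.6, 67.6 and 54.1 FPKM in WT cisplatin, against 40, 37.6 and 38.0 in WT untreated (0.70 ± 0.13, limma adjusted p = 0.00119). Hspa4l, of the HSP110 class, had 19.1, 27.1, 27.7 and 36.2 FPKM in WT cisplatin, against 19.0, 17.6 and 17.4 in WT untreated, with WT cisplatin replicate 1 beside the untreated libraries. Its rise of 0.55 ± 0.18 (limma adjusted p = 0.0316) was lost under 9 of 15 alternatives, among them the omission of any 1 WT library other than cisplatin replicate 1. Hspb11, an intraflagellar transport protein, rose by 0.59 ± 0.17 (limma adjusted p = 0.0139), a call lost under both scalings and without WT untreated replicate 2 or 3, and Hspbap1, at 1.38 to 3.27 FPKM over the WT libraries, by 0.57 ± 0.12 (limma adjusted p = 0.00302). All 4 genes were lower in cKO than in WT after cisplatin, with differences of −0.64 for Hspa4l, −0.48 for Hspbp1, −0.50 for Hspb11 and −0.52 for Hspbap1 (limma adjusted p of 0.00545 to 0.0284). Hspb11 lost that call under 8 of 16 alternatives, both scalings among them, and Hspbp1 with median-of-ratios factors.

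In cKO, 0 of the 68 genes were called in either direction after cisplatin, where limma called 0.0197% of all genes. An unadjusted p under 0.05 was found for 14, and array weights gave 3 calls higher and 3 lower, against 3.66% of all genes higher and 2.09% lower. Over all genes 11.5% had an unadjusted p under 0.05. The groups did not overlap for 7 genes above and 7 below, against 7.17% of all genes above and 5.03% below. Of the 22 genes that rose in WT 19 had a positive difference in cKO and 3 a negative one, with a median of 0.21 in cKO and 0.58 in WT, and all 8 that fell had a negative one, with a median of −0.26 in cKO and −0.71 in WT. By library, the median difference of the 22 genes from the untreated mean was 0.26, 0.26, 0.24 and 0.01 in cKO cisplatin, and 0.41, 0.53, 0.65 and 0.57 in WT cisplatin. The library labelled cKO cisplatin replicate 4 was near 0 and the other 3 alike. The 22 and the 8 genes were picked by their calls in these same WT libraries. Picking them so tends to enlarge the WT values but not those of cKO, so these medians do not compare the size of the responses.

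Without the library labelled cKO cisplatin replicate 4, 1 gene was called higher in cKO (Dnajb2) and 1 lower (Dnajc12), against 1.13% of all genes higher and 0.757% lower. Without the library labelled cKO cisplatin replicate 3, 0 members and 0 genes in all were called by limma. Hspb6, the small HSP of smooth muscle, had 9.70, 7.68, 6.87 and 6.67 FPKM in cKO cisplatin, against 4.61, 4.46 and 6.51 in cKO untreated (0.50 ± 0.19, limma adjusted p = 0.320), with no overlap and no call. In WT, Hspb6 had 10, 11.4, 10.2 and 6.37 FPKM after cisplatin, against 7.60, 7.15 and 5.49 untreated, with overlap (0.42 ± 0.19, limma adjusted p = 0.106). Exons of Hspb6 overlap those of Lin37 (mean of 11.3 FPKM) and Proser3 (2.97 FPKM) on the other strand. Since the counting strand is not stated, the Hspb6 values cannot be told apart from reads of those genes.

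Between cKO and WT after cisplatin, 7 genes were called higher in cKO and 15 lower, where 26.9% of all genes were called, 8.77% higher and 18.1% lower. The median difference was −0.14 over the 68 genes and −0.11 over all genes, a shift of −0.106 that scaling by median-of-ratios factors brought to −2.83e-04 and quantile normalization to 0.0131. The split was 9 higher and 8 lower with the factors and 11 higher and 11 lower with quantiles. Over all genes it was 1812 higher and 2016 lower with the factors, and 1993 higher and 2081 lower with quantiles. All 7 higher calls and 8 of the 15 lower calls of members held under both. Only 3 and 6 of them held under every alternative: Dnajc12, Dnajc28 and Dnajc6 higher, and Hspb1, Hsp90aa1, Dnajb4, Dnajc5, Dnajb9 and Hspbap1 lower. The other 4 higher calls were Dnajc19, Dnajb6, Dnajc22 and the mitochondrial Dnaja3. The 7 are J-domain genes, of which 40 were among the 68 tested and 6 were called lower. Without the library labelled cKO cisplatin replicate 3 the members called were 4 higher and 14 lower, against 6.88% and 14.4% of all genes. Without that labelled cKO cisplatin replicate 4 they were 4 higher and 12 lower, against 6.45% and 12.5% of all genes. The calls of Dnajb6, Dnajc22 and Dnaja3 were each lost without several single libraries, the library labelled cKO cisplatin replicate 4 included. cKO and WT cisplatin libraries did not overlap for 7 members above and 14 below, against 7.33% and 13.8% of all genes. These cisplatin libraries are also those of the responses above.

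**Figure D4:**
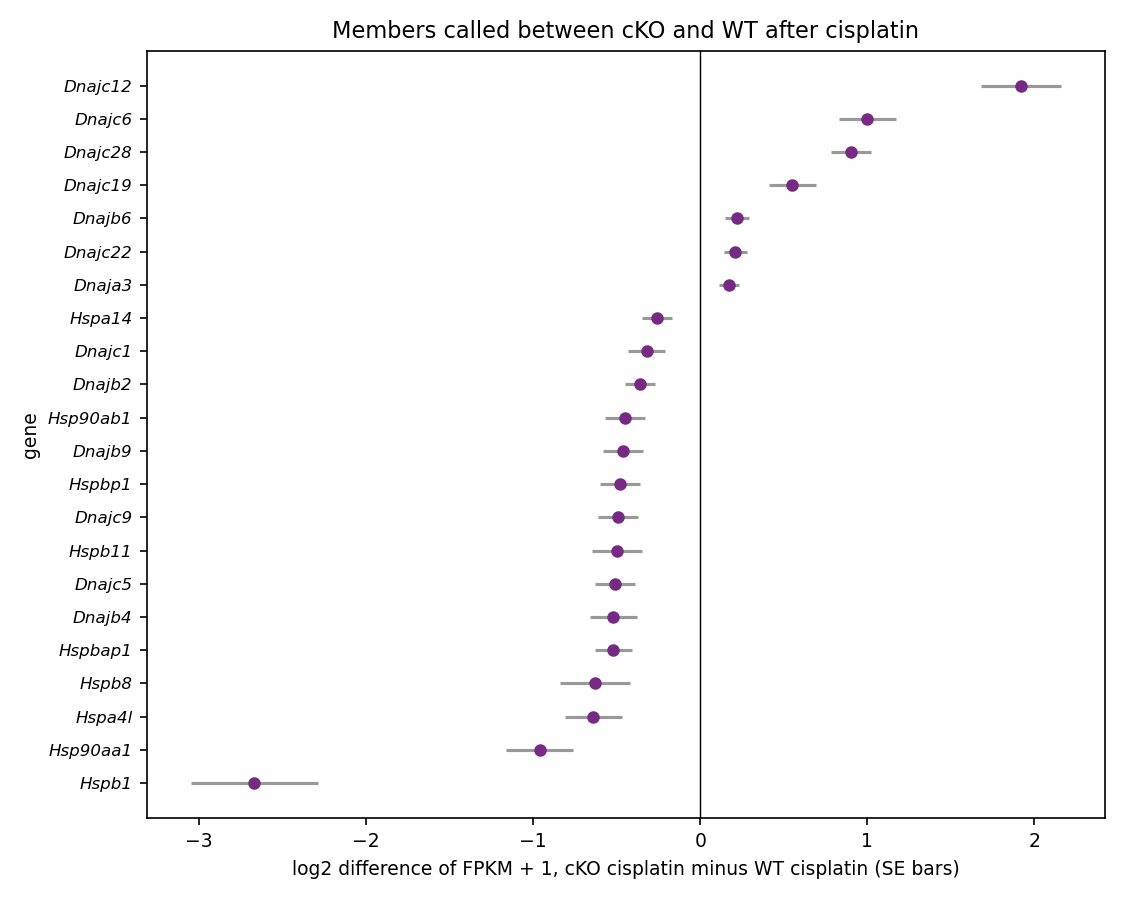
Log2 difference of FPKM + 1, cKO cisplatin minus WT cisplatin (x axis, SE bars), for the 22 genes called in that comparison (y axis). The 7 genes right of 0, led by Dnajc12 at 1.92, encode J-domain proteins, as do 6 of those left of 0, and Hspb1 at −2.67 is the lowest of the 15 genes left of 0.

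By compartment, 0 of the 10 endoplasmic reticulum genes were higher and 2 lower in cKO after cisplatin (Dnajb9 and Dnajc1). Dnajc1 kept its call under 7 of 16 alternatives and lost it without, among others, the library labelled cKO cisplatin replicate 4. Of the 9 mitochondrial genes 3 were higher and 0 lower (Dnajc28, Dnajc19 and Dnaja3). Over all genes tested, 8.77% were higher and 18.1% lower. Dnaja3 kept its call under 8 of 16 alternatives and lost it without any 1 of the 4 cKO cisplatin libraries. Exons of Dnaja3 overlap those of Vasn on the same strand and of Coro7 on the other, so its reads may not be told apart from theirs. Dnajb9 averaged 30.2 ± 3.73 FPKM in cKO cisplatin and 41.9 ± 5.17 in WT cisplatin (SD, n = 4 each), a difference of −0.46 ± 0.12 (limma adjusted p = 0.0112). Dnajc5, the cysteine string protein of secretory vesicles, averaged 47.5 ± 6.23 FPKM in cKO cisplatin and 68.3 ± 10 in WT cisplatin (SD, n = 4 each), a difference of −0.51 ± 0.12 (limma adjusted p = 0.00648). Neither gene's libraries overlapped between genotypes. Beside this comparison, 13 of 18 proximal tubule markers were higher in cKO and 10 of 13 macrophage markers lower. The summed macrophage markers were 72.9 to 96.6 FPKM in cKO cisplatin, 124 to 444 in WT cisplatin, 61.9 to 92.8 in cKO untreated and 83.1 to 99.7 in WT untreated, with Itgam listed at 0 in part of the libraries. Fibroblast markers summed to 69.0 to 137 FPKM in cKO cisplatin and 83.1 to 601 in WT cisplatin, highest in both lists in WT cisplatin replicate 3, and their part in the chaperone differences was not tested.

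Between cKO and WT without drug, 0 of the 68 genes were called, as were 0% of all genes by limma. At an unadjusted p under 0.05 there were 0 of the 68, against 0.810% of all genes. Differences ran from −0.34 to 0.26, and the groups did not overlap for 2 genes above (Dnaja3 and Hspa9) and 1 below (Hspa12a), against 2.01% and 4.25% of all genes. For the difference of the cisplatin responses, where 4.06% of all genes were called, 1.41% higher and 2.65% lower, the 3 called members were Dnajc12 and Dnajc28 (higher) and Hspb1 (lower). At an unadjusted p under 0.05 there were 16 members, against 21.4% of all genes.

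The classes were also summed as a share of the FPKM of all genes. HSP70 genes made up 0.277% to 0.423% in cKO cisplatin, 0.338% to 0.446% in WT cisplatin, 0.278% to 0.324% in cKO untreated and 0.283% to 0.296% in WT untreated. WT cisplatin was above WT untreated in every library, and the library labelled cKO cisplatin replicate 4 was the library of its group below cKO untreated. HSP90 genes made up 0.189% to 0.224% in cKO cisplatin, 0.245% to 0.380% in WT cisplatin, 0.213% to 0.295% in cKO untreated and 0.228% to 0.254% in WT untreated. The cisplatin groups did not overlap with each other, and WT cisplatin overlapped with both untreated groups. The chaperonin pair made up 0.0743% to 0.0871% in cKO cisplatin, 0.0690% to 0.0854% in WT cisplatin, 0.0964% to 0.110% in cKO untreated and 0.0962% to 0.102% in WT untreated, below both untreated groups in all 8 cisplatin libraries. Small HSPs, with Hspb1 the most abundant of them, made up 0.00393% to 0.00714% in cKO cisplatin, 0.0148% to 0.0575% in WT cisplatin, 0.00312% to 0.00534% in cKO untreated and 0.00367% to 0.0047% in WT untreated. WT cisplatin lay above every other library, and the cKO groups overlapped with each other.

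**Figure D5:**
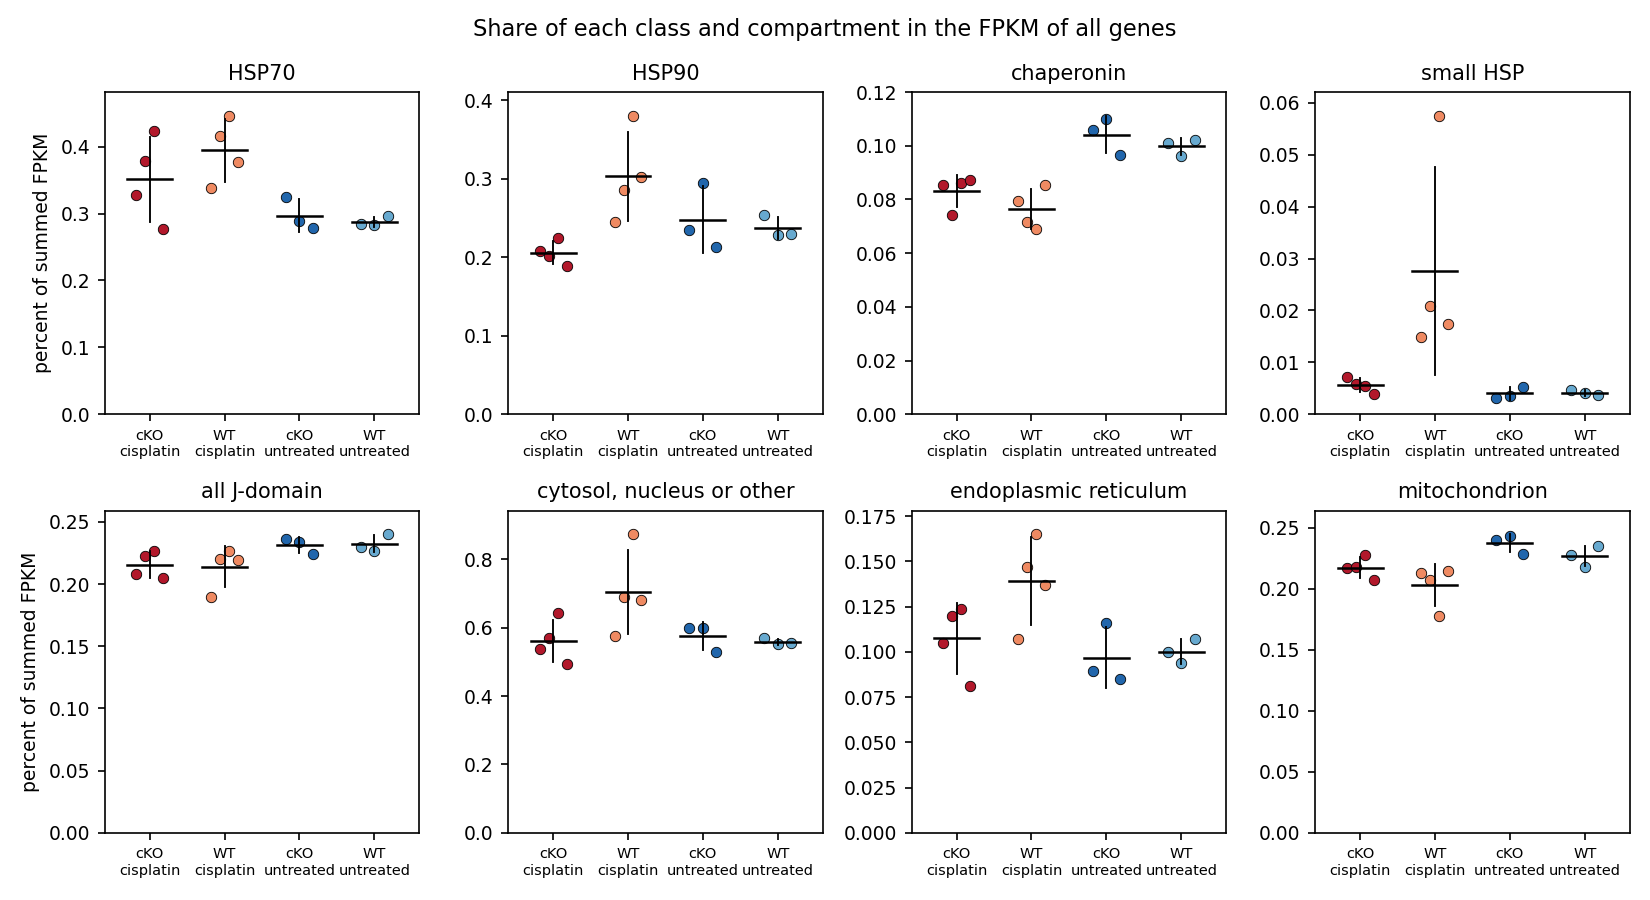
Share of chaperone classes and compartments in the summed FPKM of all genes (percent, y axis from 0) in every library (points) with group mean (bar) and SD (line), in the order cKO cisplatin, WT cisplatin, cKO untreated, WT untreated. The chaperonin share of all 8 cisplatin libraries lies at or under 0.0871%, below the 0.0962% of the lowest untreated library.

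Partner genes outside the name pattern were grouped by role. Over all genes tested, 22.3% rose and 12.1% fell in WT, and 18.1% were lower in cKO than in WT after cisplatin. The calls of these partner genes were not followed under the alternatives, so how far they depend on scaling was not tested. Of 22 tested cytosolic cochaperones of HSP70 and HSP90, 9 rose and 0 fell in WT, among them Sugt1 (0.56) and Ruvbl2 (0.53), and 6 were lower in cKO than in WT after cisplatin. Of 6 BAG genes, which are exchange factors of HSP70, 2 rose: Bag2 had 33.1, 42.6, 56.5 and 58.7 FPKM in WT cisplatin, against 15.3, 11 and 13.0 in WT untreated (1.77 ± 0.21, limma adjusted p = 6.35e-05), and Bag3, the partner of Hspb8, rose by 0.70 ± 0.12 (limma adjusted p = 8.69e-04). In cKO, Bag2 had 19.6, 12.1, 17.7 and 12.6 FPKM after cisplatin, against 11.5, 14.7 and 12.4 untreated, with overlap and no call (0.23 ± 0.21, limma adjusted p = 0.744). Both BAG genes were lower in cKO than in WT after cisplatin, Bag2 at −1.55 and Bag3 at −0.68 (limma adjusted p = 2.63e-04 and 0.00127). Bag2 responses differed by −1.54 ± 0.30 (limma adjusted p = 0.0182).

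Of 16 subunits of the cytosolic chaperonin TRiC and of prefoldin, 8 rose in WT and 1 fell, among them Cct5 at 0.61, Cct3 at 0.53 and Cct7 at 0.49. Of 18 endoplasmic reticulum chaperones and folding enzymes 11 rose and 0 fell, against 22.3% and 12.1% of all genes tested. Manf had 70.9, 84.6, 98.4 and 76.7 FPKM in WT cisplatin, against 44.1, 32.5 and 39.2 in WT untreated (limma adjusted p = 4.86e-04), and the collagen chaperone gene Serpinh1 rose by 1.22 ± 0.26. Of 13 mitochondrial chaperones and proteases 0 rose and 2 fell in WT, the protease gene Afg3l2 by 0.24 and the exchange factor gene Grpel2 by 0.37 on the log2 scale. The small HSP gene Cryab, named outside the pattern, had 362, 207, 595 and 532 FPKM in WT cisplatin, against 131, 116 and 139 in WT untreated, and rose by 1.60 ± 0.32 (limma adjusted p = 0.00198). The extracellular chaperone gene Clu rose by 2.76 ± 0.32 (limma adjusted p = 5.84e-05), and both were lower in cKO than in WT after cisplatin, Cryab at −1.31 and Clu at −1.79.

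Of 6 tested heat shock factors and HSF regulators, 1 rose and 1 fell in WT. Hsf1 itself had 14.9, 16.6, 21.4 and 21.9 FPKM in WT cisplatin, against 13.8, 15.9 and 13.3 in WT untreated, with overlap and no call (0.35 ± 0.14, limma adjusted p = 0.0618). The rise was Hsbp1, an HSF1-binding protein (0.34 ± 0.12, limma adjusted p = 0.0496), and the fall Hsf2bp (−1.01 ± 0.26, limma adjusted p = 0.00831). In cKO, 0 genes of these 7 lists were called after cisplatin in either direction, where 0.0197% of all genes were called by limma.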

How the data were processed

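Kidney RNA of 14 mouse samples was sequenced from Trizol extracts as TruSeq libraries, per the labels' protocols. The submitters' processing notes name HISAT2 2.0.5 and the mm10 build. The counter, annotation and strand setting are not given in the sources used here. The authors deposited FPKM values, 1 per gene and sample. Of the columns, 0 lacked a sample, and 0 of 91 pairs of libraries were identical. Depth was read from the FPKM steps with GENCODE M21 lengths, at which at least 78.4% of low values were whole reads (tolerance 0.02). Intervals from it would cover counting error only.

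FPKM values were used unscaled as log2(FPKM + 1), which understates changes of low genes. The filter of 0.5 FPKM left 15193 genes and removed 34391. Group means of all 4 groups were fitted together in limma 3.58.1 (R 4.3.3) with a mean-variance trend and two-sided tests, with Benjamini-Hochberg adjustment over all genes kept, and the fit was tested on simulated data. Replicate numbers follow record order and pair nothing.

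The members, classes and lists were chosen with earlier results of these data known. Genes were named by rule: 16 archetypes, the 10 largest rises and falls called in each cisplatin comparison, up to 10 called genes with the smallest p between genotypes, and up to 3 genes per other list, of which 1 is not reported here. Further members are named to account for counts, after their values were seen. Promoters are from RefSeq (GRCm38.p6), where 60 of 74 symbols matched. Exons of 17 members overlap those of another tested gene in GENCODE M21. Alternatives were another pseudocount, filters, scalings, weights, fits of the groups compared, and the omission of single libraries.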

Additional observations from a re-analysis of the deposited data

Results flagged for a closer look

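In 3 members the cisplatin responses differed between genotypes by the interaction test in limma. The difference, cKO minus WT, was −2.84 for Hspb1, 1.80 for Dnajc12 and 0.77 for Dnajc28.

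In 8 of the 64 groups of 4 libraries examined for the 32 named members, 1 library lay far from the other 3. The members were measured in the same libraries, so the 64 groups are not independent and the count has no chance rate to be set against. Of these, 4 were the library labelled cKO cisplatin replicate 4, with red blood cell genes at 811 FPKM: it was lowest for Dnajb2 (31.3 FPKM), Dnajb9 (24.7 FPKM) and Dnajc3 (38.6 FPKM) and highest for Dnajc12 (176 FPKM). WT cisplatin replicate 3 was highest for Hspb1 (378 FPKM) and Hspa1a (7.85 FPKM). In cKO cisplatin, replicate 2 was highest for Hspa1a (5.35 FPKM) and replicate 1 for Hspbp1 (52.6 FPKM).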

How the results depend on the processing

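The 55 member calls, refitted under every alternative, were lost in 152 of 864 refits, and 109 member calls were gained. For the genes named by rule alone, of 1137 values 1052 kept their direction and call, 39 lost a call, 11 gained one and 35 changed sign. The 35 belong to 15 comparisons of members whose log2 difference was at most 0.17 in size and not called (adjusted p of 0.529 or more). No paired analysis was possible because replicate numbers follow record order and the labels pair no samples. The depth of 36.7 to 77.0 M reads limits genes near 0.5 FPKM.

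The calls in WT after cisplatin (22 higher, 8 lower) became 14 lower with median-of-ratios factors, 16 lower with quantile normalization and 13 lower with array weights. Over all 15193 genes the lower calls moved too, from 1832 to 2409, 2600 and 2488 in the same order. In cKO, 0 and 0 became 3 higher and 3 lower with array weights, 2 and 2 with both WT cisplatin replicate 1 and the library labelled cKO cisplatin replicate 4 left out, and 0 to 1 in each direction without single libraries. Over all genes array weights called 3.66% higher and 2.09% lower, and leaving out the pair 2.16% and 1.22%. Between cKO and WT after cisplatin, 7 higher and 15 lower became 8 lower with median-of-ratios factors, 11 higher with quantile normalization, 3 higher and 6 lower with only the groups compared, and 4 to 8 higher without single libraries. Over all genes 1333 higher and 2755 lower became 2016 lower, 1993 higher, 714 higher and 1410 lower, and 931 to 1770 higher, in the same order. The difference of responses (2 higher, 1 lower) became 0 and 0 with no filter, 5 and 9 with array weights, 4 and 4 without the pair of libraries, and 0 to 5 higher and 0 to 4 lower without single libraries. Over all genes 1.41% higher and 2.65% lower became 7.65% and 14.9% with array weights, and 3.74% and 7.82% without the pair. With no filter 88 of 29480 genes were called higher and 167 lower. Without single libraries 36 to 702 genes were called higher and 49 to 1540 lower. The cause was not tested.

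Signs changed with median-of-ratios factors and quantile normalization for Hspa9 in WT (−0.06 and −0.03) and Dnajc3 between genotypes after cisplatin (0.08 and 0.08), and with quantile normalization for Hspa1a there (0.01). With array weights they changed in cKO for Dnaja1 (0.06), Dnajc3 (0.02), Hspa1b (0.17) and Hsph1 (0.02), and between genotypes after cisplatin for Hsp90b1 (0.12) and Hspa8 (0.07). Without the pair of libraries they changed in cKO for Dnaja1 (0.05), Dnajc3 (0.06) and Hsph1 (0.02). Without single libraries, values in cKO ran from −0.11 to 0.10 for Dnaja1, −0.07 to 0.12 for Dnajc3, −0.06 to 0.28 for Hsp90b1, −0.29 to 0.42 for Hspa1b, −0.10 to 0.04 for Hspe1 and −0.20 to 0.02 for Hsph1. Hspe1 in WT ran from −0.23 to 0.07. Between genotypes after cisplatin they ran from −0.01 to 0.19 for Dnaja1, −0.08 to 0.03 for Dnajc3, −0.23 to 0.04 for Hspa1a, −0.00 to 0.15 for Hspa9 and −0.13 to 0.18 for Hspe1.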
